A study of Drosophila melanogaster with 4 samples.

Results

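The respiratory chain and ATP synthase genes of Drosophila melanogaster were followed in maps of RNA polymerase II from Kc167 cells. They were chosen by symbol: protein-coding genes whose symbol begins with ND-, SdhA to SdhD, UQCR-, COX4 to COX8 or ATPsyn, and that lie on the chromosome arms 2L, 3R and X. The rule finds 48 of the 8252 protein-coding genes on those arms. A further 39 genes with such symbols lie on other chromosomes and are not analysed here. Of the 48, 37 are subunit genes, and 11 carry the symbol or synonym of another gene with an added L and are called L paralogs here.

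Kc167 is a female cell line derived from embryos of genotype se/e. Chromatin was fixed with 1.8% formaldehyde for 10 min and precipitated for 15 h with a rabbit polyclonal antibody against the largest subunit of RNA polymerase II with phosphate on serine 5 of its repeated tail, the form that predominates near promoters soon after initiation. The series has 2 ChIP libraries and 2 libraries of input DNA, all from untreated cells of the same line. Values come from the authors' list of enriched regions for each ChIP replicate (4874 and 4822 regions) and from a further list, made by them from the replicates as a set and named combined below (5074 regions). Region lists of the input are not analysed here, so there is no value of the input to set beside those of the ChIP, and the sequencing depth is unknown. The labels do not say whether the replicates were separate cultures, so the spread between them may be technical. As a check of the label, 4 genes known from plasmatocytes, the blood cells that Kc167 resembles, were looked up: vkg had both ends in enriched regions of all 3 lists, srp and Col4a1 had 1, and NimC1 had neither. The share with both ends, 25% of 4 genes, is that of genes in general (25.7% of all protein-coding genes on the 3 arms), so the count does not bear on the label.

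Oxidative phosphorylation runs through complexes of the inner mitochondrial membrane. Complex I passes electrons from NADH and complex II from succinate to ubiquinone, complex III passes them to cytochrome c and complex IV to oxygen, and the ATP synthase (complex V) uses the proton gradient built by complexes I, III and IV. Apart from a few subunits encoded in mitochondrial DNA, the subunits come from nuclear genes scattered over the chromosomes, which must supply matched amounts of protein. In Drosophila many of these genes have a second copy, and such copies are often expressed in the testis.

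The gene table gives the 2 ends of each gene and no strand. Start sites inside a gene were not considered, and a start site was assumed to be at 1 of the 2 ends. It was therefore taken to lie in an enriched region when both ends did, to lie outside when neither did, and to be undecided when only 1 end did. A gene counted only if the end was in a region of the combined list and of both replicate lists.

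Subunit genes of all 5 complexes lay in chromatin enriched for the Ser5-phosphorylated polymerase. Both ends were in enriched regions for 34 of the 37 subunit genes (91.9%), 1 end for the other 3, and neither end for 0. Among all protein-coding genes of the 3 arms, both ends were in enriched regions for 25.7% and at least 1 end for 54.7%. Respiratory genes are short, with a median length of 1.18 kb for the subunit genes against 2.18 kb for all genes, and both ends of a short gene can more easily fall in 1 region. Among all genes of at most 2 kb the shares were 29.2% for both ends and 44.2% for at least 1 end, against 29 of 31 (93.5%) and 31 of 31 for the subunit genes of that length. All 48 members together gave 36 with both ends (75%), 5 with 1 end and 7 with neither. These shares are descriptions, with no test over genes.

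**Figure D1:**
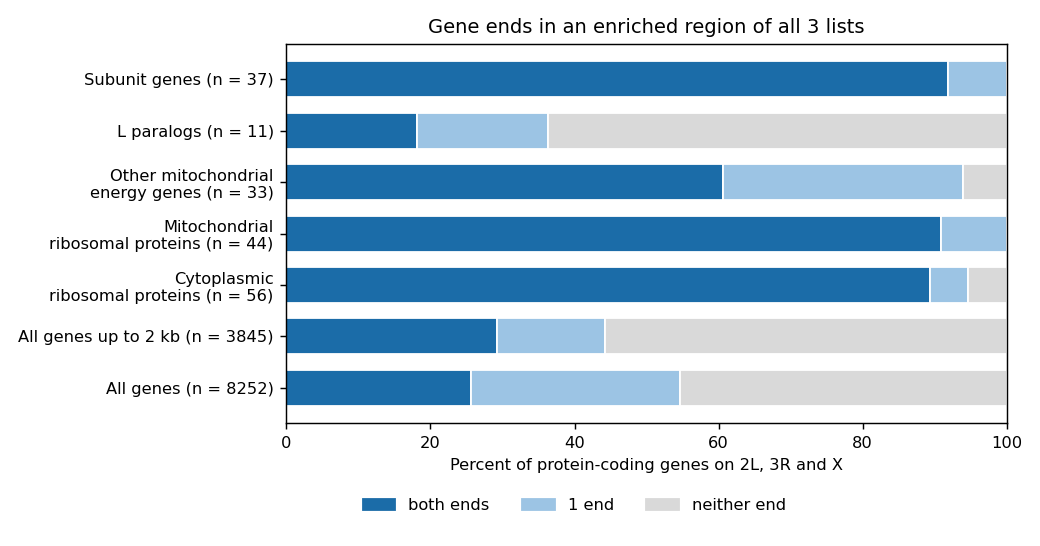
Percent of protein-coding genes on 2L, 3R and X (x axis) with both ends, 1 end or neither end in an enriched region of all 3 lists, for each gene group (y axis, with its number of genes). Both ends lay in regions for 91.9% of the subunit genes, 18.2% of the L paralogs, 29.2% of all genes up to 2 kb and 25.7% of all genes.

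Enriched regions took in the whole of most subunit genes. In both replicates, 33 of the 37 were covered over 100% of their bases (89.2%), against 27.8% of all genes of at most 2 kb. The median subunit gene was 100% covered in each replicate, and the median gene of the 3 arms 11.2% in replicate 1 and 11.4% in replicate 2. At the middle of the gene, 94.6% of the subunit genes were in an enriched region in each replicate. That share was 39.9% ± 0.092 (SD, n = 2 replicates) for all genes of at most 2 kb and 31.1% ± 0.61 (SD, n = 2) for all genes. At 5 kb on either side it was 43.2% ± 3.8 and 47.3% ± 5.7 for the subunit genes, against 23.9% ± 0.15 and 24.4% ± 0.26 for all genes of at most 2 kb. The lists also hold regions of depletion (67 combined, 17 in replicate 1 and 16 in replicate 2), and these touched 0 members. The share of all genes that they touched was not measured, so this count does not set the members apart. The cells were measured in bulk, so polymerase in some of the cells and less polymerase in all of them cannot be told apart.

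**Figure D2:**
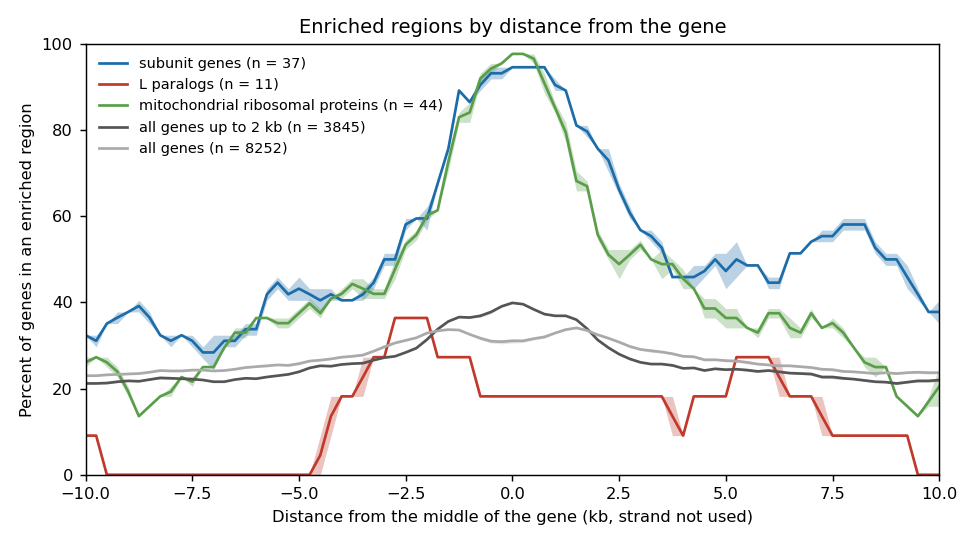
Percent of genes in an enriched region (y axis) by distance from the middle of the gene in kb (x axis, strand not used); lines are means of the 2 ChIP replicates and bands span them. Subunit genes reach 94.6% at the middle of the gene, L paralogs 18.2%, and all genes 31.1%.

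By arm, both ends were in enriched regions for 10 of 12 subunit genes on 2L, 13 of 13 on 3R and 11 of 12 on X. The same share of all protein-coding genes was 682 of 2657 on 2L, 857 of 3398 on 3R and 578 of 2197 on X. No arm was without enriched subunit genes.

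The authors give each region a score, above 0 in enriched regions, whose scale is not named. It was read here as a rank, the percentile of the region among all enriched regions of its list. A score belongs to the whole region. For none of the 36 members with both ends in regions was the region free of an end of another protein-coding gene, against 101 of 2117 (4.77%) among all genes with both ends in regions and 18 of 1122 (1.6%) among those of at most 2 kb. The median member shared its combined region with 4 other genes, and the range was 2 (ND-13A) to 10 (ATPsynO). That median was 3 for all genes with both ends in regions, and 3 for those of at most 2 kb. How much of a score comes from the member itself cannot be told apart from its neighbours.

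Members lay in regions of middling score. Over the 36 members, the percentile of the region had a median of 57.8 in replicate 1 and 59.1 in replicate 2, a mean of 58.4 ± 0.94 (SD, n = 2). For all genes with both ends in regions the median was 64.2 ± 0.79 (SD, n = 2). A region that holds several genes enters this median once for each, so it need not be 50. In both replicates, 20 of the 36 members had a region in the upper part of the list by the median (55.6%), against 64.9% for all genes, and 1 had a region in the top 10% (2.78%), against 7.7%. With genes of at most 2 kb only, the median percentile was 52.6 ± 3.7 for members and 62.1 ± 1.4 for all genes (SD, n = 2). The upper part then held 48.4% of members against 61.8%, and the top 10% held 3.23% against 5.44%. Regions around members were wide, with a median of 6.84 kb ± 0.22 (SD, n = 2) against 5.71 kb ± 0.20 (SD, n = 2) for all genes with both ends in regions.

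The replicates ranked the members alike. Over the 36 members, Pearson's r of the scores in replicates 1 and 2 was 0.983 and Spearman's rho was 0.973. This is a description across genes that share libraries, and neighbours such as COX5B and COX5BL also share regions. The percentile differed between replicates by a median of 2.72 points and by at most 10.9 points (COX6B). The regions of 4 members, UQCR-14, ND-24, COX6B and COX7A, differed more than 1.5 times in width between the replicates. Their percentiles moved as well. In replicates 1 and 2 these were 65.8 and 73.3 for UQCR-14, 45.9 and 55.9 for ND-24, 71.7 and 82.5 for COX6B, and 60.2 and 68.8 for COX7A.

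**Figure D3:**
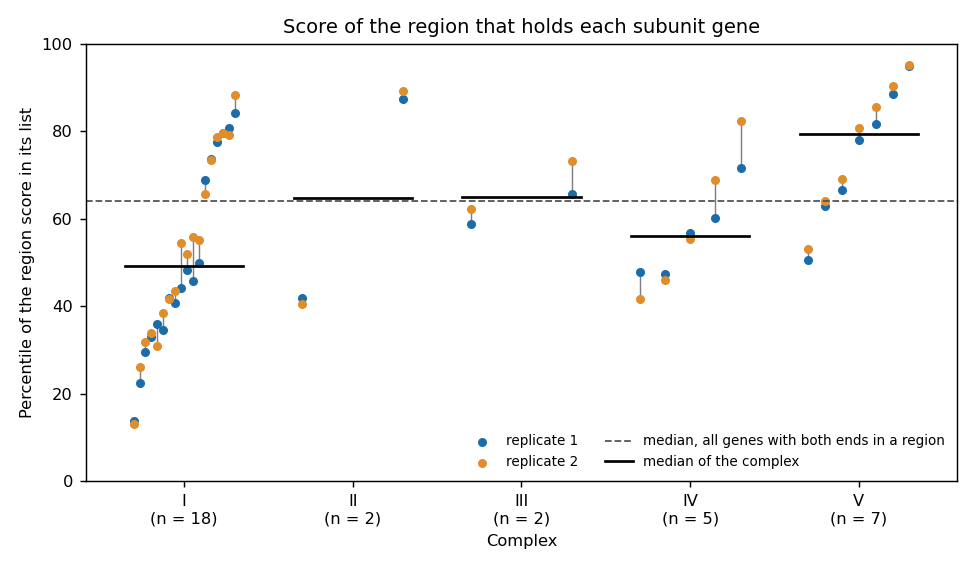
Percentile of the region score within its list (y axis) for the 34 subunit genes with both ends in regions, by complex (x axis); points are replicates joined by a grey line, black bars the median of a complex, and the dashed line the median of all genes with both ends in regions (64.2). All 7 ATP synthase genes lie above 50 in both replicates, and complex I spans 13.1 to 88.4.

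Complex I, the largest, had 20 subunit genes on the 3 arms. Both ends of 18 were in regions, with a median percentile of 49.2 ± 5.8 (SD, n = 2). The range ran from 13.8 in replicate 1 and 13.1 in replicate 2 for ND-13A to 84.3 and 88.4 for ND-B8. The core subunits, which carry the flavin and iron-sulfur clusters and have bacterial counterparts, overlapped with the accessory ones. Of the core genes, 4 of 5 had both ends in regions, with a median percentile of 46.8 ± 4.1, and of the accessory genes 14 of 15, with 49.8 ± 4.9 (SD, n = 2), a difference smaller than the spread between replicates.

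ND-B8, the counterpart of mammalian NDUFA2, lay in a region scoring 2.42 in replicate 1, 2.56 in replicate 2 and 2.48 in the combined list, at 4451778 to 4461056 on 2L (release 5). That region of 9.28 kb also holds ends of RpL27A, a cytoplasmic ribosomal protein gene, and of mRpL27, a mitochondrial one, and of 4 further genes. Next by mean score came ND-15 (NDUFS5 in mammals) with 2.30 and 2.23 in replicates 1 and 2, and ND-18 (NDUFS4) with 2.25 and 2.24. ND-15 is an exception in its annotation: the table gives it 41.3 kb, far more than any other member, regions covered 42.8% and 43.4% of those bases, and the score is of the region at 1 of its ends. ND-75, the largest iron-sulfur subunit, was in a 12.8 kb region in both replicates, with scores of 2.18 and 2.21. ND-ASHI (1.90 in replicate 1 and 1.85 in replicate 2) and ND-B16.6 (2.04 in each), both accessory, were also in the upper part of the lists.

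The lowest score of any member was that of ND-13A (NDUFS6), 0.53 in all 3 lists, in a region of 2.02 kb in each replicate. It lay on 2L at 5099014 to 5101068 in the combined list and held ends of CG4230 and Msp300. ND-B14.5A (NDUFA7) followed with 0.77 in replicate 1, 0.90 in replicate 2 and 0.68 in the combined list. Both genes were nevertheless covered over 100% of their bases in each list. The core subunits ND-20 (1.29 and 1.32) and ND-23 (1.27 and 1.36), and the accessory ND-42 (0.98 and 1.08), ND-B17.2 (1.07 and 1.13), ND-B18 (1.15 and 1.05) and ND-B22 (1.11 and 1.25), were likewise in the lower part of both replicate lists, while ND-24, ND-B14.5B, ND-MNLL and ND-PDSW crossed the median between replicates.

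For the remaining complex I genes the start site was undecided. ND-51, which binds NADH and the flavin, was covered over 73.3% of its bases in replicate 1, 93.1% in replicate 2 and 100% in the combined list, where both ends were in the region; its percentile was 61.5 in each replicate. It was the 1 member whose call differed between lists. ND-B17 (NDUFB6) was covered over 62.7% and 60.5% in the replicates and 62.8% in the combined list, always with 1 end inside, at percentiles of 41.5 and 35.1.

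Complex II, succinate dehydrogenase, was represented by its membrane anchors SdhC and SdhD, both on 3R. SdhC lay in a narrow region of 4.51 kb in replicate 1 and 4.54 kb in replicate 2, with scores of 2.56 and 2.60. SdhD lay in a wider one of 7.56 and 7.61 kb that scored 1.29 and 1.30. The anchors are thus far apart in rank, at percentiles of 87.5 and 89.2 for SdhC and 41.9 and 40.6 for SdhD, and the replicates differed far less. SdhC shares its region with ends of Tctp, ZnT86D and cu.

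In complex III, UQCR-C1, a core protein of the matrix side, scored 1.66 in replicate 1 and 1.75 in replicate 2. UQCR-14 scored 1.82 and 2.03. Their percentiles, 58.8 and 62.3 for UQCR-C1 and 65.8 and 73.3 for UQCR-14, lay above the median of both lists. The region of UQCR-14 was 9.67 kb wide in replicate 1 but 5.67 kb in replicate 2, and the combined region had 12.7 kb.

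Complex IV, cytochrome c oxidase, had 5 subunit genes on the 3 arms, and both ends of all 5 were in regions (median percentile 56.0 ± 1.0, SD, n = 2). The nuclear-encoded subunits surround a catalytic core made in mitochondria. COX6B ranked highest, with scores of 1.98 in replicate 1 and 2.33 in replicate 2. COX7A scored 1.68 and 1.91, COX5A 1.61 and 1.60, COX5B 1.41 in each and COX4 1.42 and 1.32. COX4, which binds nucleotides in mammals, was thus among the lower ones although the whole gene was covered in every list.

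The ATP synthase genes ranked highest of the 5 complexes. Of 8 subunit genes, 7 had both ends in regions, with a median percentile of 79.4 ± 2.0 (SD, n = 2). All 7 were in the upper part of both lists. That share was 64.9% for all genes with both ends in regions, and 6 of 18 (33.3%) in complex I. The ranges overlapped, from 51.8 to 95.1 in the ATP synthase and 13.5 to 86.4 in complex I as means of the replicates. Genes are not replicates of a complex and no test was made.

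ATPsynD, a part of the peripheral stalk that holds the catalytic head in place, had the highest score of any member, 3.00 in both replicates and 2.97 in the combined list. Its region lay on 3R at 14918618 to 14922868 and also held an end of mRpL55, a mitochondrial ribosomal protein gene, and ends of CG6040 and cdi. ATPsynC, which makes the rotating ring in the membrane, scored 2.60 in replicate 1 and 2.67 in replicate 2, in regions of 16.4 and 15.8 kb. ATPsynCF6, another stalk subunit, scored 2.33 and 2.46 and shared its region with RpS3, a cytoplasmic ribosomal protein gene.

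Of the membrane subunits that join the enzyme into dimers, ATPsynG scored 2.18 in replicate 1 and 2.27 in replicate 2, and ATPsynE 1.84 and 1.92. Of the 7 with both ends in regions, the lowest scores were those of ATPsyngamma, the rotor shaft (1.75 and 1.80), and ATPsynO, the stalk subunit that touches the head (1.47 and 1.55). ATPsynO lay in the widest region of any member, 19.2 kb in replicate 1 and 18.7 kb in replicate 2, together with ends of 10 other genes. ATPsyndelta, a central stalk subunit, was undecided, with 45.4% and 40.9% of its bases and 1 end in regions, and scores of 1.68 and 1.51.

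**Figure D4:**
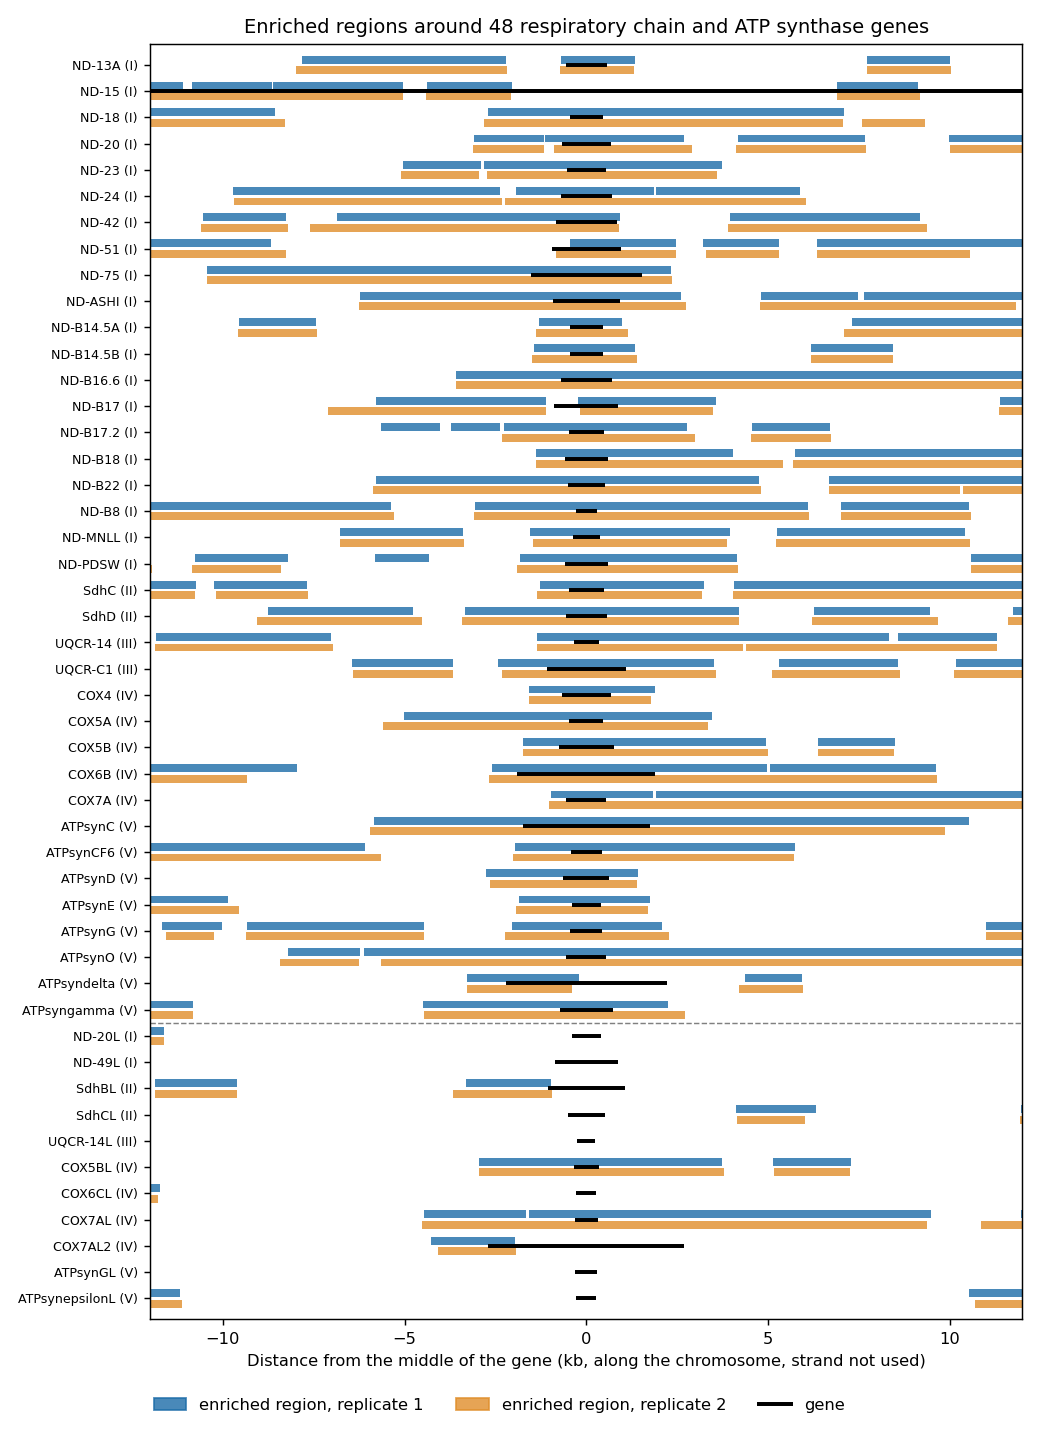
Enriched regions of replicate 1 (blue) and replicate 2 (orange) within 12 kb of the middle of each of the 48 genes (black bars), by distance along the chromosome in kb (x axis); subunit genes are above the dashed line, L paralogs below it, with the complex in brackets. Regions cover the middle of most subunit genes, and 7 of the 11 L paralogs lie outside every region.

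The L paralogs were mostly outside the enriched regions. Of 11, 2 had both ends in regions (18.2%), 2 had 1 end, and 7 had neither end and 0% of their bases in any list. The shares of 18.2% and 36.4% (at least 1 end) are near or below the 29.2% and 44.2% of all genes of at most 2 kb, so they do not set the paralogs apart from genes in general. The 7 without a region were ND-20L, ND-49L, SdhCL, UQCR-14L, COX6CL, ATPsynGL and ATPsynepsilonL. Their distance to the nearest combined region was 3.5 kb for SdhCL, 8.32 kb for ATPsynGL, 10.2 kb for ATPsynepsilonL, 11.2 kb for ND-20L, 11.5 kb for COX6CL, 22 kb for ND-49L and 22.4 kb for UQCR-14L. Absence from a list says that no region passed the authors' threshold, which the sources used here do not state, and not that polymerase was absent.

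The parents of these copies were enriched. For 9 of the 11 L paralogs the parent gene is on the 3 arms, and all 8 such parents (ATPsynG, COX5B, COX7A, ND-20, SdhC, UQCR-14, and outside the symbol rule sun and cype, the genes for ATP synthase epsilon and cytochrome oxidase subunit VIc) had both ends in regions and 100% of their bases covered in both replicates. SdhC against SdhCL, UQCR-14 against UQCR-14L, ND-20 against ND-20L and ATPsynG against ATPsynGL thus gave 100% against 0% in both replicates. Among all genes of at most 2 kb, 29.2% had both ends in regions and 27.8% were fully covered in both replicates. The measured parents other than sun and cype are subunit genes already counted above. The parents of ND-49L and SdhBL are on chromosomes not analysed here. Reads that match both copies can be given to either gene or dropped, and the sources do not say how they were handled, so values of near-identical copies are uncertain.

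Both L paralogs with a called start stand next to their parent. COX5BL and COX5B lay in 1 region of 6.68 kb in replicate 1 and 6.75 kb in replicate 2, with a score of 1.41 in each, which also holds ends of Ent2, IFT52 and Trmt6. COX7AL and COX7A shared 1 region of 13.9 kb with a score of 1.91 in replicate 2. In replicate 1 they were separate, with COX7A in a region of 2.80 kb scoring 1.68 and COX7AL in one of 11.1 kb scoring 1.80. In the combined list the pair shared 1 region as well, on 3R at 4165108 to 4179564. Polymerase on these copies cannot be told apart from polymerase on their neighbours.

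The other 2 were touched only at an edge. SdhBL was covered over 5.01% of its bases in replicate 1 and 5.81% in replicate 2, by a region scoring 0.87 and 1.00 that also holds an end of Flacc. COX7AL2 was covered over 13.6% and 14.2% by a region scoring 0.83 and 0.97 that also holds an end of CG10874. Of 11 genes known for expression in the testis (fzo, dj, djl, Mst84Da to Mst84Dd, Mst98Ca, Mst98Cb, bam and ocn), 0 had both ends in regions, 3 had 1 end (fzo, bam and ocn) and 8 had neither. At least 1 end was thus in a region for 27.3%, against 44.2% of all genes of at most 2 kb, a description of 11 genes with no test.

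Other mitochondrial energy genes were mostly touched by enriched regions too. Of 33 on the 3 arms (the tricarboxylic acid cycle, pyruvate dehydrogenase, cytochrome c, carriers, assembly factors and regulators), 20 had both ends in regions (60.6%), 11 had 1 end and 2 had neither. At least 1 end was thus in a region for 93.9%. Among all protein-coding genes of the 3 arms the shares were 25.7% for both ends and 54.7% for at least 1 end. With a median length of 2.94 kb the energy genes are longer than the subunit genes. For the 20 with both ends in regions, the percentile of the region had a median of 65.9 ± 0.21 (SD, n = 2). High scores were those of Cyt-c-p, the main cytochrome c (2.87 in replicate 1 and 2.81 in replicate 2), sesB, the ADP/ATP carrier (2.74 and 2.71), and porin, the channel of the outer membrane (2.29 and 2.34). These examples were picked after the values were seen. In each list Ant2 had the same score as sesB, and Porin2 the same as porin. Those scores thus cannot be credited to 1 gene of either pair.

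The 2 genes with neither end and 0% of bases in any list were Cyt-c1L and mAcon2, both copies of another gene of the pathway. Cyt-c-d, the second cytochrome c, had both ends in regions but scored 0.25 in replicate 1 and 0.11 in replicate 2, against 2.87 and 2.81 for Cyt-c-p. Regions covered 52.2% and 52.6% of the bases of Cyt-c-d in the replicates, so its ends lay in separate regions and the score is that of 1 of them. The 11 with 1 end, covered over 32.1% (mAcon1) to 90.3% (Ant2) of their bases in replicate 1 and 32.5% (ScsbetaA) to 91.5% (Ant2) in replicate 2, were CIA30, Ant2, Porin2, mAcon1, Idh3b, ScsbetaA, Fum1, muc, srl, Ets97D and mtTFB2. Among regulators, TFAM, which packages mitochondrial DNA, and ewg, the counterpart of mammalian NRF1, had both ends in regions. The regulators srl, Ets97D and mtTFB2 had 1 end. Regions covered 51.2% and 50.9% of the bases of ewg in the replicates, so its ends also lay in separate regions. The same held for PolrMT, with both ends in regions and 28.5% and 29.1% of its bases covered. Its percentiles were 33.1 in replicate 1 and 34.9 in replicate 2.

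Ribosomal protein genes gave a scale for these values. Both ends lay in regions for 40 of 44 mitochondrial ribosomal protein genes (90.9%) and for 50 of 56 cytoplasmic ones (89.3%), shares close to the 91.9% of the subunit genes. Percentiles were again taken over genes with both ends in regions. The median was 53.9 ± 1.3 for the mitochondrial and 84.7 ± 1.5 for the cytoplasmic ribosomal protein genes, against 58.4 ± 0.94 for the subunit genes (SD, n = 2). The subunit genes thus ranked below the cytoplasmic ribosomal protein genes by more than the SD between replicates. Their order against the mitochondrial ones depended on the list, since the combined list gave a median percentile of 59.2 for the subunit genes and 60.1 for the mitochondrial ribosomal protein genes.

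Some members shared a region with genes of these lists. Of the 36 members with both ends in regions, 6 (16.7%) had an end of a ribosomal protein gene or another energy gene in the same combined region, against 10.2% of all genes with both ends in regions and 11.9% of those of at most 2 kb. The pairs were ND-B16.6 with kdn (citrate synthase), ND-ASHI with Fum1 (fumarase), ND-B8 with RpL27A and mRpL27, ATPsynD with mRpL55, ND-42 with mRpL35 and ATPsynCF6 with RpS3.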

How the data were processed

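The authors deposited, for each ChIP replicate and for the replicate set, a list of regions with a position, a type and a score. Positions are of FlyBase release 5, per the file headers, and the submitters' processing notes name Bowtie 0.12.7. How regions were called, at which threshold and against which control, and the score's scale, are not given in the sources. The score that the authors deposited is above 0 in every enriched region, and only those regions were used.

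Genes came from the RefSeq table of release 6, moved to release 5 by a constant per arm: 0 on 2L, 4174278 bp on 3R and 105967 bp on X. As a check, the share of gene ends in combined regions was scanned in 500 bp steps up to 20 kb either way. It was 42.3%, 43.6% and 45.3% at these offsets on 2L, 3R and X, and at most 22.7%, 22.6% and 22.5% at 20 kb. In each of the 22 blocks of 3 Mb that hold members, the peak lay within 500 bp of the offset. It did not beyond 21 Mb on 2L and X, where no member lies. Strand and promoter or protein sequences were not used here, so reach downstream of the start and promoter motifs were not measured.

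A gene end counted with an overlap of 1 bp. The region of a gene was the one at its end with most gene bases, or else the one with most gene bases. Named with values were the highest 3 and lowest 2 members of each complex by mean replicate score among those with both ends in regions, members without a called start, L paralogs, members whose call differed between lists, and energy genes without one; other names fill the account of members. Of 47 names in the list of energy genes, 43 matched the gene table and 34 were on the arms, 1 of them a member. Members and lists were chosen with earlier results of these data known. Each mean ± SD has n = 2, the replicate lists. Overlap measures were tested on simulated data first. Alternatives were each list alone, a 250 bp window, a score threshold, merging, depleted regions and regions free of other genes. Scripts ran in Python 3.11.15, with figures from matplotlib 3.10.9 and arithmetic in pandas 2.3.3, scipy 1.17.1 and numpy 2.4.6.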

Additional observations from a re-analysis of the deposited data

How the results depend on the processing

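Of 60 values under other settings, 44 were counted as unchanged. For counts this meant within 1.5 times the main count, and for medians within 1 SD of the main median. The 60 also include offset peaks and the share of all genes with both ends in regions, which are neither. The count of members with both ends in regions was 36 to 36 without replicate 1 or 2 in turn, and 41 to 41 with at least 1 end; the L paralogs gave 2 to 2 and the energy genes 21 to 21. The median score percentile was 57.8 to 59.1, and the median width 6.68 to 7.00 kb, without 1 replicate.

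With only regions above the median score of their list, both ends were in regions for 19 members, at least 1 end for 22, and both ends for 1 L paralog and 11 energy genes; the median member had 33.5% of its bases covered, a percentile of 72.5 and a width of 8.73 kb, which follows from fewer regions. The share of all genes was not measured at this score threshold, so these counts have no background beside them. With only regions free of ends of other genes, each of these counts was 0. The median percentile was 60.0 in the combined list and 56.3 with a 250 bp window. The median width was 7.73 kb in the combined list and 8.69 kb with regions under 1 kb apart merged. On 3R the scan of gene ends peaked at -500 bp from the offset in the combined list and at 500 bp in replicate 2, 1 step of the scan each way.

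Leaving out the genes beyond 21 Mb of 2L and X, chosen after seeing the data, gave 26.2% of all genes with both ends in regions. No paired analysis was possible because region lists of the input are not analysed here and no comparison between groups of samples was made. Reach downstream of the start and promoter motifs, and their alternatives, were not run.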
